A study of Caenorhabditis elegans with 5 samples.

Results

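Expression was examined for 10 genes of the TORC1 nutrient-sensing pathway, of the 25393 genes listed for whole *C. elegans* animals, chosen by symbol. They are the GATOR1 genes *nprl-3* and *nprl-2*, the Rag GTPase genes *raga-1* and *ragc-1*, the upstream regulators *flcn-1*, *sesn-1* and *rheb-1*, the TORC1 core genes *let-363* and *daf-15*, and the S6 kinase gene *rsks-1*. The study used an *nprl-3* deletion mutant to ask whether tamoxifen acts through loss of a branched-chain sphingolipid. The mutants were as sensitive to tamoxifen as wild-type animals, and the study concluded that the drug does not act by depleting this lipid. The levels given here are of RNA in wild-type animals and do not test that question. Tamoxifen is a selective estrogen receptor modulator, and *C. elegans* has no estrogen receptor ortholog.

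RNA came from 3 tamoxifen and 2 citrate samples, all of them N2 wild-type animals labelled as stage L4 and grown on *E. coli* HT115. Animals had been kept on *E. coli* OP50, were synchronized by an L1 arrest of 18 h, and then received 400 µM tamoxifen or, as controls, 400 µM citrate, with 48 h named in every title. At least 200 animals went into a sample. By the study's methods tamoxifen delays development and the drug-treated animals were collected later than the controls, so drug and collection time cannot be told apart.

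TORC1 is a protein kinase complex that promotes growth and protein synthesis when amino acids and other nutrients are plentiful. Its kinase, TOR, works with the substrate-binding subunit Raptor at the lysosome. Rag GTPases bring the complex there, the GTPase Rheb activates it, and the GATOR1 complex restrains it by acting on the Rag GTPases. In *C. elegans*, loss of NPRL-2 or NPRL-3 overcomes the growth arrest caused by lack of a glucosylceramide made from branched-chain fatty acids, which places GATOR1 between this lipid and TORC1.

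Cel-seq2 counts tags near the 3′ end of mRNAs, and values are given as CPM, tags per 1000000 tags counted in a library. Libraries held between 1782371 tags (tamoxifen replicate 3) and 38276144 tags (tamoxifen replicate 2). Changes are log2 fold changes of tamoxifen over citrate on the log2(CPM + 1) scale, which understates changes of low genes, tested with limma and adjusted by Benjamini-Hochberg over the 8325 genes with 5 CPM or more in 2 or more of the libraries. A change was called at an adjusted p under 0.05. A stricter threshold, named the study's threshold here, was an adjusted p under 0.01 with more than a 2-fold change. The study's text gives P under 0.01 with more than 2-fold, without saying there whether that P was adjusted. A figure legend of the study gives a looser limit on the false discovery rate. All 10 genes reached the level tested, but *nprl-2* did so only through the tamoxifen libraries, since it was under 5 CPM in both citrate libraries. The libraries are described as biological replicates.

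The GATOR1 gene *nprl-3* was the gene of the 10 whose change was called. It had 48.4, 45.9 and 56.7 CPM in tamoxifen replicates 1, 2 and 3, against 15.9 and 24.9 CPM in citrate replicates 1 and 2. The groups did not overlap, with tamoxifen higher, and the ratio of the means was 2.47. These values rested on 170, 1756 and 101 tags in tamoxifen and 300 and 231 tags in citrate, the fewest being in tamoxifen replicate 3, where the 95% Poisson interval was 46.2 to 68.9 CPM. The log2 fold change was 1.29 (95% interval 0.63 to 1.95, standard error 0.31, limma adjusted p = 0.0111). It passed the 2-fold limit of the study's threshold as read here and missed the limit of 0.01 on adjusted p. The unadjusted p of *nprl-3* in limma was 0.000925, which is under 0.01, and *nprl-3* ranked 697 of 8325 genes by p. The median log2 fold change of all genes tested was 0.24, so *nprl-3* stood 1.05 above it. In bulk RNA of whole animals, fewer cells of a type and less RNA per cell cannot be told apart.

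The rise of *nprl-3* rested in part on the lower control. Without citrate replicate 1 its log2 fold change was 0.98 (limma adjusted p = 0.143), and the call was lost. Without citrate replicate 2 it was 1.60 (limma adjusted p = 0.00901). In both fits the lone citrate library was assumed to vary like the tamoxifen libraries. The call was also lost when no filter on low values was applied (limma adjusted p = 0.084). In that fit 1 of all 20671 genes tested was called higher and 0 lower. The number of calls over all genes also fell without citrate replicate 1, so these losses were not particular to *nprl-3*.

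*nprl-2* encodes the partner of NPRL-3 in GATOR1. It had 10.2, 5.70 and 11.2 CPM in tamoxifen replicates 1, 2 and 3, against 3.12 and 4.31 CPM in citrate replicates 1 and 2. The groups did not overlap, and the ratio of the means was 2.44, but the log2 fold change of 1.06 was not called (95% interval 0.20 to 1.91, limma adjusted p = 0.0582). In tamoxifen replicate 3 the value came from 20 tags, with a 95% Poisson interval of 6.85 to 17.3 CPM. Such intervals cover counting error only. *nprl-2* was called without tamoxifen replicate 2, where the log2 fold change was 1.32 with a limma adjusted p of 0.0331. That fit leaves out the deepest library, which held the lowest tamoxifen value of *nprl-2*, from 218 tags. The tamoxifen values it keeps came from 36 and 20 tags.

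The 3′ end of *nprl-2* (chromosome IV, 7556816 to 7558761, plus strand, WBcel235) shares 36 exonic bases with *ima-3*, an importin alpha gene on the other strand. *nprl-2* also shares 469 exonic bases, away from its 3′ end, with *F49E8.8* on its own strand, which had 0.569 CPM or less in every library. *ima-3* had between 697 and 899 CPM in tamoxifen and 340 and 555 CPM in citrate. Whether the counting used strand is not given in the sources used here, and the part of *ima-3* in the values of *nprl-2* was not tested. *nprl-3* (chromosome IV, 8297492 to 8299843, plus strand) shares no exonic base with another annotated gene. Beyond these, *daf-15*, *flcn-1* and *sesn-1* share 107, 46 and 21 exonic bases with *col-121*, *malt-1* and a piRNA gene on the other strand, of which *col-121* was at 0 CPM and *malt-1* at 1.71 CPM or less in every library.

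**Figure D1:**
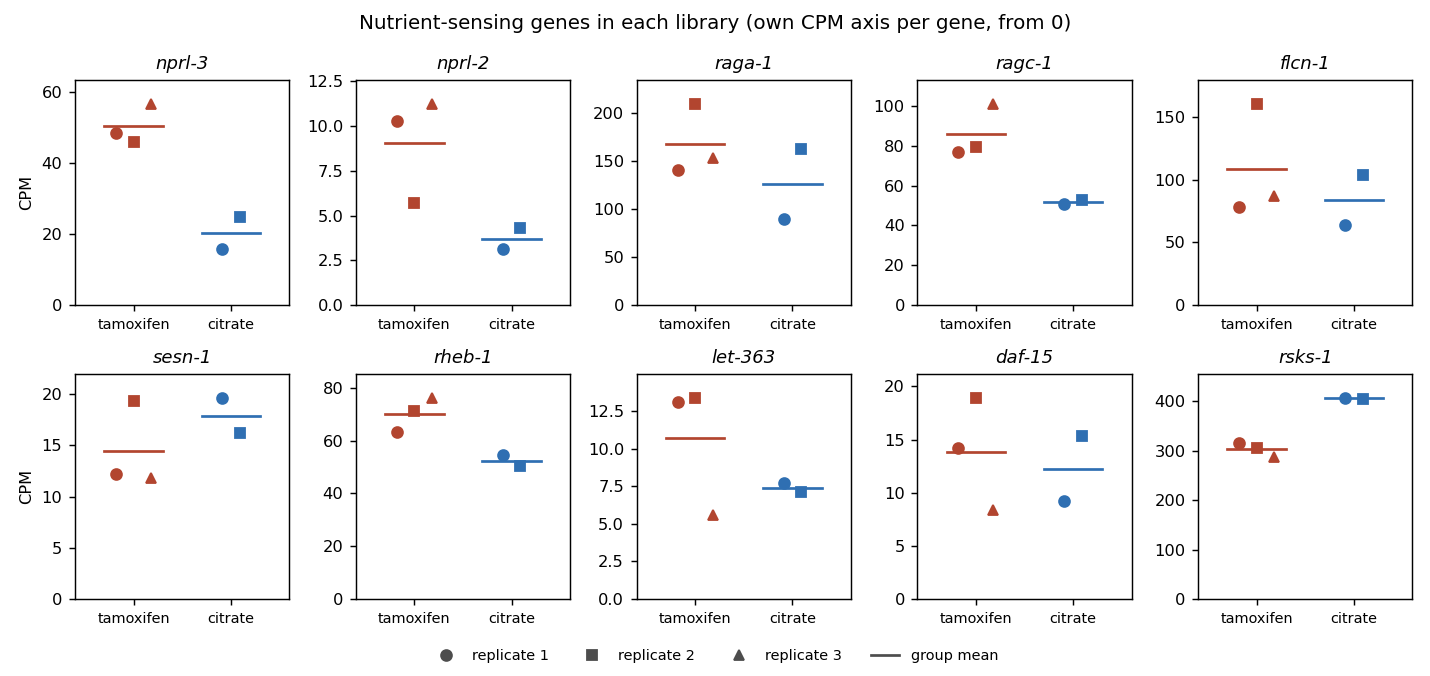
Level of each of the 10 genes in CPM (own axis for each gene, starting at 0) in the 3 tamoxifen libraries (red, left) and the 2 citrate libraries (blue, right). Symbols mark replicate numbers and lines group means. For *nprl-3*, *nprl-2*, *ragc-1* and *rheb-1* the tamoxifen points all lie above the citrate points, and for *rsks-1* they all lie below.

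The Rag GTPases work as a pair of one RagA-type and one RagC-type subunit. *ragc-1*, the RagC-type gene (chromosome IV, 11603613 to 11604933), had 76.9, 79.5 and 101 CPM in tamoxifen replicates 1, 2 and 3, against 50.9 and 52.6 CPM in citrate replicates 1 and 2. The groups did not overlap and the citrate values lay close together. The log2 fold change of *ragc-1* was 0.71 (95% interval 0.11 to 1.31), with an unadjusted p of 0.0244 in limma and an adjusted p of 0.0685, and was not called.

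*raga-1*, the RagA-type gene (chromosome II, 11301359 to 11302776), had 140, 209 and 153 CPM in tamoxifen replicates 1, 2 and 3, against 90.0 and 163 CPM in citrate replicates 1 and 2. Citrate replicate 2 lay above 2 of the 3 tamoxifen libraries, so the groups overlapped. The log2 fold change of 0.44 was not called (95% interval -0.22 to 1.11, limma adjusted p = 0.277). Without citrate replicate 1 it was 0.02, and without citrate replicate 2 it was 0.87 (limma adjusted p = 0.974 and 0.0658), so its size depended on which control was kept.

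Folliculin, encoded by *flcn-1* (chromosome II, 6928763 to 6947900), acts on RagC-type GTPases in mammals. *flcn-1* had 78.0, 160 and 87.0 CPM in tamoxifen replicates 1, 2 and 3, against 63.6 and 104 CPM in citrate replicates 1 and 2. Both groups spread widely and overlapped, with replicate 2 the highest in each. The log2 fold change of 0.34 was not called (95% interval -0.41 to 1.08, limma adjusted p = 0.471). It was -0.016 without citrate replicate 1.

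Sestrins restrain TORC1 when amino acids are scarce in mammals, and *sesn-1* is the sestrin gene of *C. elegans* (chromosome I, 27589 to 33150). *sesn-1* had 12.2, 19.3 and 11.8 CPM in tamoxifen replicates 1, 2 and 3, against 19.6 and 16.17 CPM in citrate replicates 1 and 2. Tamoxifen replicate 2 lay between the controls and the others lay below them. The log2 fold change of -0.32 was not called (95% interval -1.04 to 0.40, limma adjusted p = 0.478).

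The GTPase that activates TORC1 directly is encoded by *rheb-1* (chromosome III, 9454163 to 9456030). *rheb-1* had 63.2, 71.3 and 76.3 CPM in tamoxifen replicates 1, 2 and 3, against 54.4 and 50.3 CPM in citrate replicates 1 and 2. The groups did not overlap, but the difference was small, at a log2 fold change of 0.41 (95% interval -0.18 to 1.01, limma adjusted p = 0.261).

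The kinase and Raptor genes of the complex had overlapping groups. *let-363*, the TOR kinase gene (chromosome I, 5245743 to 5263424), had 13.1, 13.4 and 5.61 CPM in tamoxifen replicates 1, 2 and 3, against 7.68 and 7.11 CPM in citrate replicates 1 and 2. Tamoxifen replicate 3 lay below both controls, from 10 tags (95% Poisson interval 2.69 to 10.3 CPM), while the other tamoxifen libraries lay above them. The log2 fold change of *let-363* was 0.39 (95% interval -0.47 to 1.25, limma adjusted p = 0.464). Without the shallow tamoxifen replicate 3 it was 0.76 (limma adjusted p = 0.123), still not called.

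*daf-15* encodes the *C. elegans* Raptor (chromosome IV, 9386208 to 9394979). It had 14.2, 18.9 and 8.42 CPM in tamoxifen replicates 1, 2 and 3, against 9.21 and 15.3 CPM in citrate replicates 1 and 2. The groups overlapped throughout, and the log2 fold change of 0.14 was below the median of all genes tested (95% interval -0.69 to 0.96, limma adjusted p = 0.806). Its direction depended on the libraries and the scaling, at -0.20 without citrate replicate 1 and -0.030 after median-of-ratios scaling.

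S6 kinase, the product of *rsks-1* (chromosome III, 11245120 to 11252281), is phosphorylated by TORC1 and promotes protein synthesis. *rsks-1* had 316, 305 and 288 CPM in tamoxifen replicates 1, 2 and 3, against 407 and 404 CPM in citrate replicates 1 and 2. Every tamoxifen value lay below both citrate values, and the spread within each group was small. The ratio of the means was 0.746 and the log2 fold change -0.42, not called by limma (95% interval -0.92 to 0.07, adjusted p = 0.171). Fitted to recovered tags, edgeR and DESeq2 called it lower, at log2 fold changes of -0.66 (edgeR adjusted p = 0.0475) and -0.69 (DESeq2 adjusted p = 0.0277). These tools also rescale the libraries, which moved the median of all genes tested to 0.03 with edgeR and 0.0045 with DESeq2, against 0.24 in limma, and they called 1265 and 1367 genes lower, against 805 in limma. In limma after median-of-ratios scaling *rsks-1* was at -0.60 (adjusted p = 0.0744) and not called. Leaving out any 1 library kept the log2 fold change of *rsks-1* between -0.45 and -0.39, with limma adjusted p-values of 0.231 to 0.362.

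**Figure D2:**
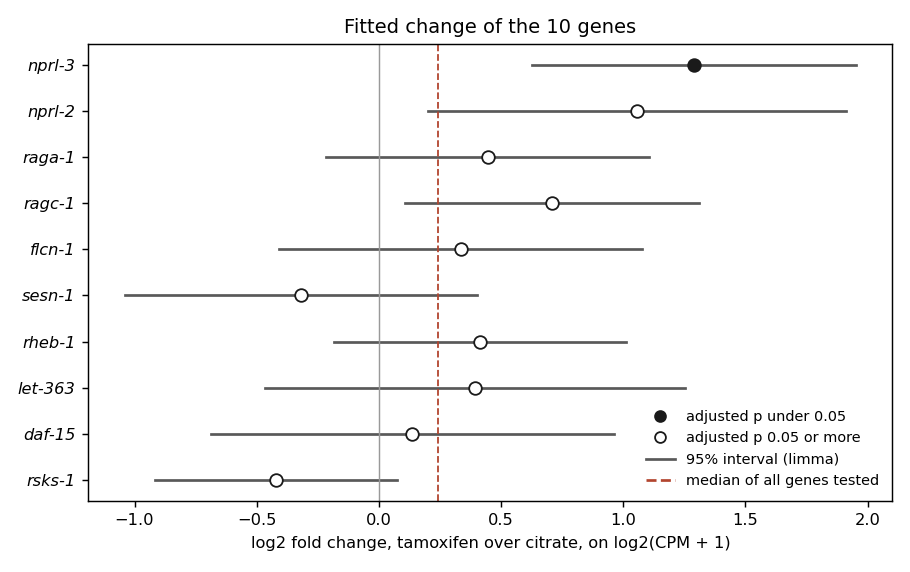
Fitted log2 fold change of tamoxifen over citrate on the log2(CPM + 1) scale (x axis) for each of the 10 genes (rows), with 95% intervals from limma. The dashed line is the median of all genes tested, 0.24, and the filled point, *nprl-3* at 1.29, is the one with an adjusted p under 0.05.

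Across the 10 genes, 1 was called higher in tamoxifen and 9 were not called. Among all genes tested, 20.4% were called higher and 9.67% lower, so the share of 1 in 10 was not above that background. These shares are 1696 and 805 genes, against 1052 and 1093 after median-of-ratios scaling, which lowers the median log2 fold change of all genes by more than 0.1. By limma 0 of the 10 passed the study's threshold, against 4.66% of all genes tested called higher and 2.76% lower, while 3 had an unadjusted p under 0.05, namely *nprl-3*, *nprl-2* and *ragc-1*, all higher in tamoxifen. Over all genes tested 29.7% were higher and 14.9% lower at that unadjusted p, so 3 of 10 was close to the background as well. At the study's threshold DESeq2 called 1 gene, *nprl-3* (log2 fold change 1.04, DESeq2 adjusted p = 0.0079), and edgeR called 0 (for *nprl-3*, log2 fold change 1.07, edgeR adjusted p = 0.0248).

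In 4 of the 10 genes every tamoxifen value lay above both citrate values, and in 1 every tamoxifen value lay below both. The background for such separation was 39.4% of all genes tested for higher and 20.8% for lower, so these counts were close to the background too. The median log2 fold change of the 10 genes was 0.40, against 0.24 over all genes tested. After median-of-ratios scaling these medians were 0.23 and 0.07. Log2 fold changes were positive for 8 of the 10 genes on the deposited scale, where 5003 of the 8325 genes tested were positive. The 8 include *nprl-2*, which entered the test only through the tamoxifen libraries. After median-of-ratios scaling 7 were positive, with *daf-15* the gene that changed sign.

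**Figure D3:**
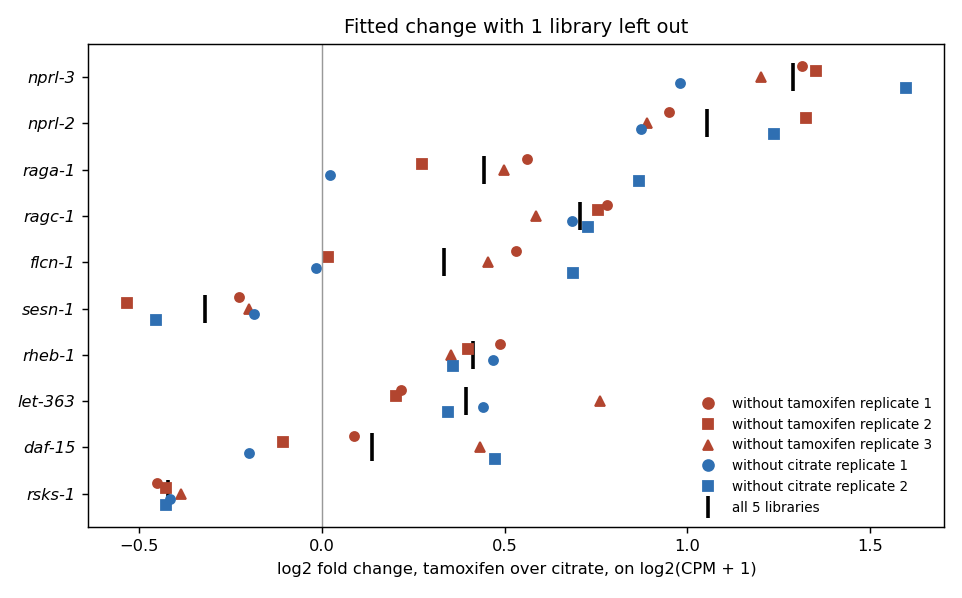
Fitted log2 fold change of each of the 10 genes (rows; x axis as tamoxifen over citrate on the log2(CPM + 1) scale) with all 5 libraries (black bar) and with 1 library left out (red, a tamoxifen library; blue, a citrate library). *nprl-3* ranges from 0.98 to 1.60, *rsks-1* stays between -0.45 and -0.39, and *daf-15* and *flcn-1* fall on both sides of 0.

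The controls differed from each other in several of these genes, in a comparison that shares its libraries with the one above. Citrate replicate 2 exceeded citrate replicate 1 by 0.85 on the log2(CPM + 1) scale for *raga-1*, by 0.70 for *flcn-1*, by 0.67 for *daf-15* and by 0.62 for *nprl-3*. The median of this difference over all genes tested was 0.13. The difference was 0.36 for *nprl-2* and 0.05 for *ragc-1*, and between -0.27 and -0.01 for *sesn-1*, *rheb-1*, *let-363* and *rsks-1*. The tamoxifen difference was thus read against controls 0.62 apart for *nprl-3*, while those of *rsks-1* nearly coincided.

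Genes of oocytes and yolk moved with *nprl-3* across libraries. A list of 12 oocyte and eggshell genes summed to between 9913 and 10685 CPM in tamoxifen, against 3422 and 5748 CPM in citrate replicates 1 and 2. Of these 12 genes 11 were called higher, with a median log2 fold change of 1.64, and in all 12 citrate replicate 2 exceeded citrate replicate 1. The second control was also the higher one in 4968 of all 8325 genes tested and in 21 of 25 major sperm protein genes tested. The median difference between the controls was 1.05 for the oocyte list, 0.18 for the sperm protein list and 0.13 over all genes tested. All 6 yolk protein (*vit*) genes were called higher, with a median of 1.39, and they summed to 3315 to 4866 CPM in tamoxifen and 1343 and 2128 CPM in citrate. Of 31 major sperm protein genes, 25 were tested and 18 called lower, with a median of -1.12, and their sums were 1564 to 2676 CPM in tamoxifen and 3849 and 4452 CPM in citrate. No oocyte or yolk gene was at 0 in any library, and 2 sperm protein genes were at 0 in at least 1. Without citrate replicate 1, limma called 5 oocyte genes and 0 yolk genes higher and 1 sperm protein gene lower, where 53 of all genes tested were called higher and 50 lower. The medians in that fit were 1.123 for oocyte, 1.10 for yolk and -1.19 for sperm protein genes. The part of oocytes, yolk-producing cells and sperm in the rise of *nprl-3* was not tested. Of 8 markers of muscle, intestine, hypodermis, neurons and germline, none was at 0 in any library and 7 were tested. The 8 summed to 835 to 906 CPM in tamoxifen and 727 and 1001 CPM in citrate. Of the 7 tested, limma called 1 higher and 0 lower, and 3 log2 fold changes were positive and 4 negative, from -0.68 to 0.79. With no trend 0 of the 7 were called. After median-of-ratios scaling, and with edgeR and DESeq2, 0 of the 7 were called higher and 1 lower. These fits called 1093, 1265 and 1367 of all genes tested lower. Among the 7 markers every tamoxifen value lay above both citrate values in 2 and below both in 1, and the groups overlapped in 4. Over all genes tested 39.4% were separated higher and 20.8% lower. The germline marker *glh-1* was called higher, with 453, 475 and 594 CPM in tamoxifen and 217 and 392 CPM in citrate (log2 fold change 0.79, limma adjusted p = 0.0461), and its controls were 0.85 apart on the log2 scale. The muscle marker *unc-54* was not called and its groups did not overlap, with 323, 383 and 249 CPM in tamoxifen and 467 and 540.3 CPM in citrate (log2 fold change -0.68, limma adjusted p = 0.0556). The part of any of these tissues in the rise of *nprl-3* was not tested.

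**Figure D4:**
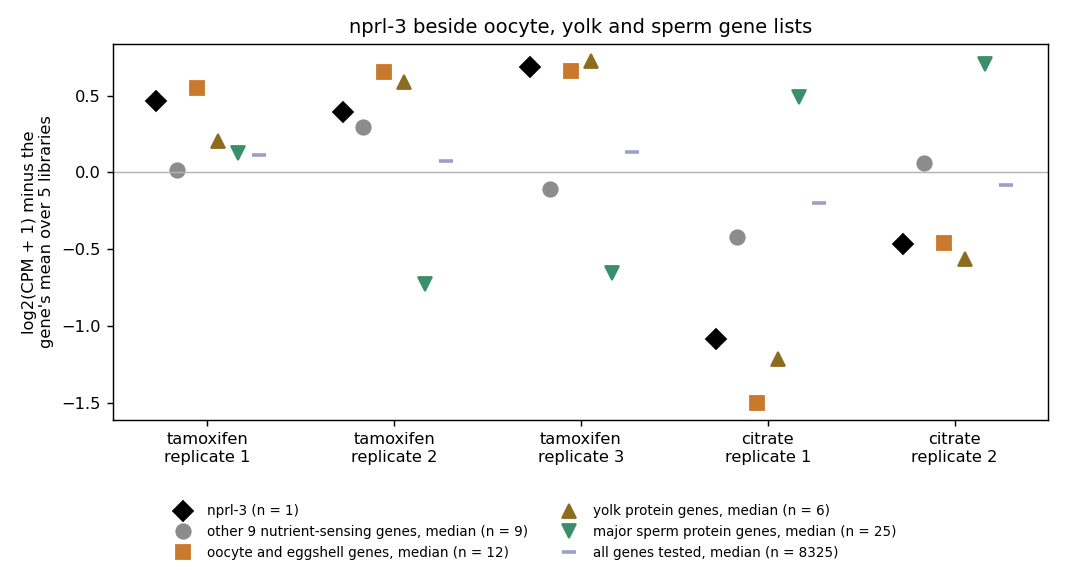
Level in each library (x axis) on the log2(CPM + 1) scale after subtracting each gene's mean over the 5 libraries (y axis), for *nprl-3*, for the medians of the other 9 nutrient-sensing genes and of the oocyte, yolk and sperm protein lists, and for the median of all genes tested. *nprl-3* is at -1.08 and -0.47 in citrate replicates 1 and 2, where the oocyte median is at -1.498 and -0.46.

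Genes with a library profile like that of *nprl-3* were sought by the root mean square difference of centred log2(CPM + 1) values over the 5 libraries. Outside the 10 genes the nearest were *ulp-1*, *rfp-1*, *nos-2*, *unc-76* and *rsd-6*, with differences of 0.024, 0.032, 0.046, 0.047 and 0.053. *ulp-1*, a SUMO protease gene, had 313, 296 and 375 CPM in tamoxifen and 107 and 171 CPM in citrate. *nos-2*, a Nanos family gene of the germline, had 96.2, 88.5 and 103 CPM in tamoxifen and 32.2 and 49.6 CPM in citrate. Within the 10 genes the nearest was *nprl-2*, at 0.27, followed by *ragc-1* at 0.34, and the farthest were *rsks-1* at 0.87 and *sesn-1* at 0.89. The median over all other genes tested was 0.62, and 1127 genes outside the 10 lay nearer to *nprl-3* than *nprl-2* did.

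Further genes of the pathway were examined from lists, each read against the background of 20.4% called higher and 9.67% called lower. Without citrate replicate 1, limma called 0 genes in every one of these lists, where 0.637% of all genes tested were called higher. List medians in that fit were 0.90 for the branched-chain lipid genes and 0.37 for the other TOR complex genes, against 0.82 and 0.35 with all libraries. The other lists had smaller medians in that fit. The AMPK and LKB1 list moved from 0.18 to 0.05 and the autophagy list from 0.32 to 0.26. The cap-binding and S6 list moved from 0.25 to 0.16 and the transporter list from -0.24 to -0.10. The median of all genes tested moved from 0.24 to 0.19. A list of 9 genes held other genes of the TOR complexes and their lysosomal scaffold, together with *npp-18*, *npp-20* and *sgk-1*. Of these 9 genes 8 were tested, 1 was called higher and 7 were not called, with a median log2 fold change of 0.35. The called gene was *rict-1*, which encodes Rictor, the subunit that defines TORC2. *rict-1* had 25.6, 33.5 and 33.1 CPM in tamoxifen and 10.8 and 19.6 CPM in citrate. Its log2 fold change was 1.02 (limma adjusted p = 0.0356). The call was not made by edgeR (adjusted p = 0.0914) or DESeq2 (adjusted p = 0.0899). *mlst-8*, whose product is shared by both TOR complexes, was at 0.30 (limma adjusted p = 0.524), and the Ragulator scaffold genes *lmtr-2*, *lmtr-3* and *lmtr-5* were at -0.27, 0.40 and 0.15, none of them called.

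AMPK senses low cellular energy and opposes TORC1. Of 14 genes for its subunits and for the upstream LKB1 complex, 12 were tested, 3 were called higher and 2 lower, with a median log2 fold change of 0.18. *mop-25.1*, one of 3 genes for the LKB1 scaffold MO25, had 55.2, 82.8 and 46.6 CPM in tamoxifen, against 169 and 123.3 CPM in citrate. Its log2 fold change was -1.26 (limma adjusted p = 0.0125). A second MO25 gene, *mop-25.3*, was called in the other direction, at 1.15 (limma adjusted p = 0.0383), from 6.83 to 9.27 CPM in tamoxifen and 2.44 and 4.096 CPM in citrate. It entered the test only through the tamoxifen libraries. The third, *mop-25.2*, was at 0.39 and not called.

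*strd-1*, which encodes the LKB1 partner STRAD, had 31.0, 22.2 and 33.1 CPM in tamoxifen and 11.9 and 13.4 CPM in citrate, which gave a log2 difference of 1.11 (limma adjusted p = 0.0211). The AMPK beta subunit gene *aakb-1* was lower, with 4.27, 7.55 and 3.37 CPM in tamoxifen and 11.9 and 11.2 CPM in citrate, which gave a log2 difference of -1.11 (limma adjusted p = 0.0466). The gamma subunit gene *aakg-5* was higher, at 1.04 (limma adjusted p = 0.0399), and the controls were themselves 1.24 apart on the log2 scale. The catalytic genes *aak-1* and *aak-2* were at 0.14 and 0.06 and not called. The list median was -0.02 with edgeR and -0.06 with DESeq2, and each called 1 gene higher and 2 lower. Of all 8325 genes tested, edgeR called 968 higher and 1265 lower, and DESeq2 1082 and 1367.

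Downstream of TORC1, protein synthesis begins with the cap-binding factor eIF4E and its scaffold eIF4G. By limma 0 of 8 genes of this list were called, with 0 at an unadjusted p under 0.05 and 0 called by edgeR or DESeq2. At that unadjusted p 29.7% of all genes tested were higher and 14.9% lower. The largest log2 fold changes were 0.57 for *efk-1*, the elongation factor 2 kinase gene, and -0.47 for *ife-2*, an eIF4E gene (limma adjusted p = 0.205 and 0.354). *rps-6*, the gene for the ribosomal protein that S6 kinase phosphorylates, was at -0.17.

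TORC1 also holds back autophagy. Of 29 autophagy genes 26 were tested, 6 were called higher and 1 lower, close to the background, with a median log2 fold change of 0.32. Among the 26, 3 genes entered the test only through the tamoxifen libraries, being under 5 CPM in both citrate libraries. None of these 3 was called. *atg-7*, the activating enzyme for both autophagy conjugation systems, had 12.8, 15.8 and 34.2 CPM in tamoxifen and 4.61 and 9.49 CPM in citrate, and its log2 difference was 1.39 (limma adjusted p = 0.0279). *epg-4* was at 1.37, *atg-13*, a subunit of the initiating kinase complex, at 1.20, *atg-18*, which binds phosphoinositides, at 1.07, and *epg-5*, which acts in autophagosome maturation, at 0.98 (limma adjusted p between 0.0126 and 0.0314). *mxl-3*, a transcription factor gene that restrains lysosomal lipolysis in fed animals, had 18.5, 36.29 and 8.98 CPM in tamoxifen and 52.0 and 58.6 CPM in citrate, and its log2 difference was -1.54 (limma adjusted p = 0.0206). On recovered tags edgeR called 2 autophagy genes higher and 2 lower, and DESeq2 3 higher and 2 lower. Of the 8325 genes tested, these tools called 968 and 1082 higher and 1265 and 1367 lower. The gene *hlh-30*, which encodes the TFEB ortholog, had 99.6, 86.4 and 56.7 CPM in tamoxifen and 83.9 and 89.8 CPM in citrate, with overlapping groups.

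Amino acids reach TORC1 through transporters. Of 17 transporter genes 7 were tested and 1 was called, *aat-2*, which encodes an amino acid transporter subunit. *aat-2* had 5.98, 8.39 and 10.1 CPM in tamoxifen and 22.2 and 16.5 CPM in citrate, and its log2 difference was -1.17 (limma adjusted p = 0.0254). The peptide transporter gene *pept-1* was at 0.29 and the lysosomal amino acid transporter gene *slc-36.1* at 0.61, neither of them called.

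The lipid pathway that lies upstream of GATOR1 in *C. elegans* makes branched-chain fatty acids and turns them into glucosylceramide. Of 14 genes 10 were tested, 5 were called higher and the other 5 were not called, with a median log2 fold change of 0.82. All 10 values were positive, where 5003 of the 8325 genes tested were positive. Among the 10, *sptl-2* entered the test only through the tamoxifen libraries, since it was under 5 CPM in both citrate libraries. *acs-1*, the acyl-CoA synthetase gene of this route, passed the study's threshold, with 188, 279 and 186 CPM in tamoxifen and 53.5 and 93.9 CPM in citrate. Its log2 fold change was 1.58 (limma adjusted p = 0.0055). *cgt-3*, a glucosylceramide synthase gene, had 78.3, 58.5 and 94.3 CPM in tamoxifen and 28.9 and 36.6 CPM in citrate, and its log2 difference was 1.19 (limma adjusted p = 0.0141).

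*elo-5*, the elongase gene whose knockdown arrest is overcome by loss of NPRL-2 or NPRL-3, had 33.3, 28.7 and 49.9 CPM in tamoxifen and 15.9 and 17.7 CPM in citrate. Its log2 fold change was 1.07 (limma adjusted p = 0.0262). The serine palmitoyltransferase genes *sptl-1* and *sptl-3* were at 0.98 and 0.97 (limma adjusted p = 0.0305 and 0.0401). Of the 10 genes edgeR called 2 and DESeq2 3, all of them higher, where edgeR called 968 and DESeq2 1082 of the 8325 genes tested higher.

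**Figure D5:**
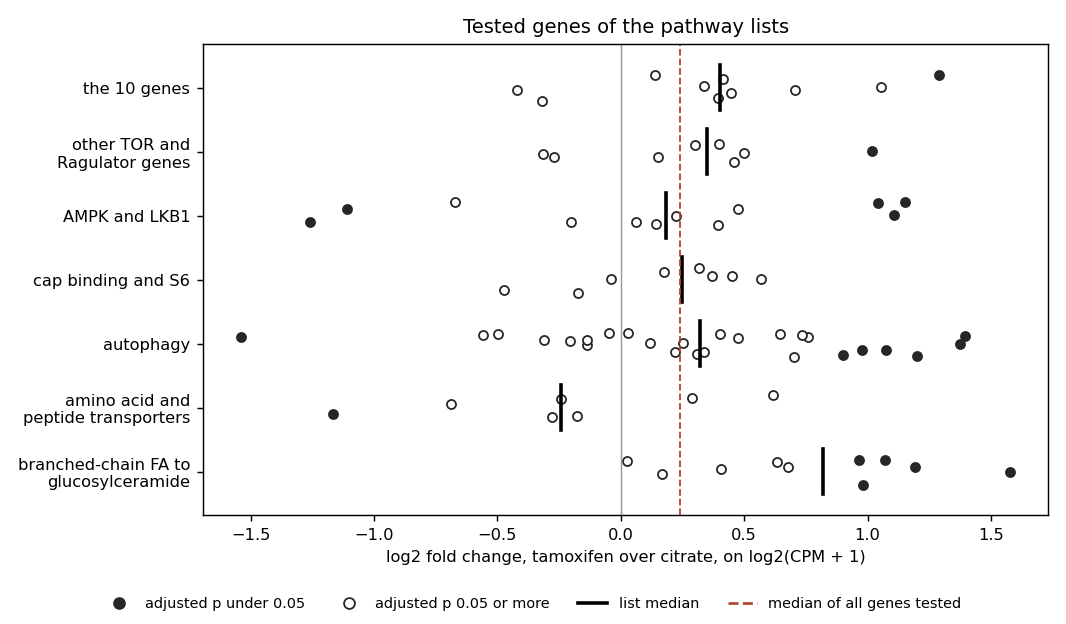
Log2 fold changes of tamoxifen over citrate on the log2(CPM + 1) scale (x axis) for the 10 genes and for the tested genes of each pathway list (rows). Filled points have an adjusted p under 0.05 in limma, black bars are list medians and the dashed line is the median of all genes tested, 0.24. The branched-chain lipid list has a median of 0.82 and the transporter list one of -0.24.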

How the data were processed

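Whole-animal RNA of 3 tamoxifen and 2 citrate samples was sequenced by Cel-seq2, and groups were taken from sample titles. The authors deposited 1 table of CPM values, which they call TPM, scaled to a sum of 1000000 per library without gene length. Every value was a whole multiple of the smallest (tolerance 0.01 tags), so 100% of the values gave whole tags. The submitters' processing notes name Trimmomatic 0.32 and STAR, and the methods a DolphinNext pipeline. Build, strand and collapsing of molecular identifiers are not given in the sources used here. Positions are those of Ensembl release 115, WBcel235.

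The main test was limma 3.58.1 (R 4.3.3; empirical Bayes with a trend, pseudocount 1) over all 8325 genes at 5 CPM or more in at least 2 libraries. An exact permutation test of 1 gene cannot go below a p of 0.1 here. Alternatives were pseudocounts of 0.1 and 5, no filter, a filter of 20 CPM, median-of-ratios scaling, no trend, leaving out each library, a block on replicate number, and, on the recovered tags, DESeq2 1.42.0 and the quasi-likelihood test of edgeR 4.0.16, which called 148 genes higher and 426 lower at the study's threshold. The script was tested on simulated data. The genes and lists were chosen with earlier results of these data known. Named genes are the 10, the called genes of each pathway list (at most 6, or the 2 largest changes where none was called), and the 5 nearest to *nprl-3*. Other list genes (*mlst-8*, *lmtr-2*, *lmtr-3*, *lmtr-5*, *npp-18*, *npp-20*, *sgk-1*, *mop-25.2*, *aak-1*, *aak-2*, *rps-6*, *hlh-30*, *pept-1*, *slc-36.1*, *sptl-2*, *cgt-1*, *cgt-2*, *aat-3*, *aat-5*, *aat-7*, *glh-1*, *unc-54*) were named for their roles or levels after their values were seen.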

Additional observations from a re-analysis of the deposited data

How the results depend on the processing

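Counts of called genes depended on the processing, and so did the log2 fold changes of several of the 10 genes. At the study's threshold limma called 388 genes higher and 230 lower. The counts were 0 and 0 without a filter (4742 of 20671 genes at an unadjusted p under 0.05), 148 and 426 with edgeR, and 31 and 46 when no trend was fitted. Genes higher were 140 after median-of-ratios scaling, and genes lower 780 with DESeq2. Leaving out 1 library gave 4 to 541 higher and 1 to 157 lower, with the lowest counts without citrate replicate 1. At an adjusted p under 0.05 limma called 1696 higher and 805 lower. These were 1 and 0 without a filter, 968 and 1265 with edgeR, and 1082 and 1367 with DESeq2. Genes higher were 1052 after median-of-ratios scaling, and genes lower 510 with a filter of 20 CPM. Leaving out 1 library gave 53 to 1525 higher and 50 to 687 lower. The cause of these moves was not tested.

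Of the 10 nutrient-sensing genes, 0 passed the study's threshold. The count was 1, *nprl-3*, with a filter of 20 CPM, with DESeq2 and without citrate replicate 2, a range of 0 to 1 over the left-out libraries. At an adjusted p under 0.05 the count of genes higher was 1. It was 0 without a filter and 2, *nprl-3* and *nprl-2*, without a trend, and ranged from 0 to 2 over the left-out libraries. The count of genes lower was 0 in limma and 1, *rsks-1*, with edgeR and with DESeq2. For *nprl-3* the call was lost without a filter (log2 fold change 1.29, adjusted p = 0.084) and, over the left-out libraries, where the log2 fold change ranged from 0.98 to 1.60, without citrate replicate 1. It kept its direction in all 14 alternatives. Reversals concerned *daf-15*, at -0.030 after median-of-ratios scaling, -0.0064 with DESeq2 and from -0.20 to 0.47 over the left-out libraries, and *flcn-1*, from -0.016 to 0.69 over the left-out libraries. The filter of 20 CPM left 6 of the 10 genes.

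With the replicate block limma called 1044 genes higher and 599 lower at the study's threshold, and 1 of the 10 genes, *nprl-3* (log2 fold change 1.20, adjusted p = 0.00243). No citrate library is numbered 3, so in this fit tamoxifen replicate 3 added nothing to the comparison. It gave *nprl-3* the same log2 fold change, 1.20, as leaving out that library, and left little from which to estimate the spread. Titles share numbers, but nothing says that a number marks a batch. For libraries sharing a number, deviations from the group mean had a correlation over genes of 0.12 (replicate 1) and 0.32 (replicate 2). Depth limits the low genes, since 5 CPM is 8.91 tags in tamoxifen replicate 3 and 191 tags in tamoxifen replicate 2.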

Other observations

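Of the 4 branched-chain lipid genes under the level tested, 2 encode glucosylceramide synthases beside *cgt-3*. *cgt-1* had 0.57, 1.18 and 2.24 CPM in tamoxifen replicates 1, 2 and 3, against 1.38 and 2.59 CPM in citrate replicates 1 and 2, and *cgt-2* had 2.28, 3.42 and 2.81 CPM in tamoxifen, against 4.77 and 4.204 CPM in citrate. All 3 tamoxifen values of *cgt-2* lay below both citrate values, whereas those of *cgt-3* lay above both, and the difference between them was not tested. Of the 17 transporter genes 10 were under the level tested, of which 1 had every tamoxifen value above both citrate values, 4 had every one below, and 5 overlapped. All 3 autophagy genes under that level had every tamoxifen value above both citrate values. The share of such separation over all genes under that level was not computed, so these counts have no background to be read against. *aat-3* had 2.28, 1.62 and 3.93 CPM in tamoxifen, against 0.953 and 1.19 CPM in citrate, from 7 to 62 tags a library. *aat-5* had 1.99, 2.53 and 0.56 CPM in tamoxifen, against 4.77 and 3.45 CPM in citrate. *aat-7* had 0, 2 and 0 tags in tamoxifen replicates 1, 2 and 3, against 10 and 3 tags in citrate replicates 1 and 2.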
